A study of Mus musculus with 12 samples.

Results

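The genes described here are 52 genes of G2 and mitosis, the stretch of the cell cycle in which a cell that has copied its DNA condenses its chromosomes, builds a spindle and divides. They were chosen by symbol, and all 52 were found among the 32285 genes of the deposited matrices. They were read in antibody-secreting cells (ASCs) of the mouse, the last stage of the B lineage, which includes dividing plasmablasts and resting plasma cells. The tissues were spleen, thymus and bone marrow. Each of the 6 gene expression libraries held the ASCs of 1 tissue and 1 sex, pooled from 3 mice, so that each tissue had 2 libraries, each sex had 3, and no combination was repeated. All mice were C57BL/6, aged 3 months, and bore the Prdm1-eYFP reporter, which marks cells that transcribe Prdm1. The sort took reporter-positive cells high for CD138, with or without B220 and negative for both IgD and CD90.2, and no treatment is named, so a change in Prdm1 or Sdc1 (CD138) between groups is limited by the gate. The comparisons ask whether ASCs of the 3 tissues, of the 2 sexes and of different heavy-chain classes differ in these genes. The labels do not say whether the tissues of 1 sex came from the same 3 mice, and p-values measure only the spread between these libraries.

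A barcode was used where it had at least 1000 unique molecular identifiers (UMIs, each counting 1 captured RNA molecule) outside the immunoglobulin genes and its leading light-chain V gene held at least 50% of its light-chain V UMIs. Of 39949 barcodes in the filtered lists, 25749 reached 1000 UMIs and 8715 met both rules, with the fewest (107) in the thymus of females and the most (3567) in their spleen. Their UMIs outside immunoglobulin genes summed to between 264621 (female thymus) and 21287170 (female spleen). Levels are given as CPM, a gene's UMIs scaled to a common total of 1000000 UMIs outside immunoglobulin genes. Reads start at the 5' end, so a gene's UMIs do not grow with its length, and no division by length was made. ASC markers were high in every library: Xbp1, a transcription factor of secretory cells, lay between 3074 and 3707 CPM, while Pax5, which defines B cells before they secrete, stayed at or under 1.39 CPM. The 8 neutrophil markers summed to 548 CPM (female) and 1334 CPM (male) in bone marrow libraries and to at most 0.6 CPM elsewhere. In male spleen 29.8% of the barcodes used 1 heavy-chain V gene, Ighv9-3, against at most 2.88% in any other library. The libraries shared 39 barcode sequences, found on 79 barcodes.

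Entry into mitosis is driven by the kinase Cdk1 with its B-type cyclins, which is released by the phosphatase Cdc25c. The aurora kinases, Bub1 and Ttk then control the attachment of kinetochores to the spindle, and Cdc20 with Ube2c lets the anaphase-promoting complex destroy the cyclins and free the chromosomes. Plasmablasts still divide, whereas mature plasma cells have left the cell cycle, so these genes are commonly used to tell dividing from resting ASCs.

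Many of these genes are held silent in resting cells through a short promoter element, the cell cycle genes homology region (TTTGAA), bound by the MuvB complexes, and are driven through CCAAT boxes bound by NF-Y. The RefSeq promoter table (GRCm38.p6) had windows of 300 bases, 250 before to 50 after the start, for 46 of the 52 members, 51 windows in all. Searched on both strands, TTTGAA was present in 66.7% of the member windows and in 17.9% of all 32851 windows in the table. CCAAT was present in 74.5% and 37.4%, and both in 52.9% and 6.95%. These are matches of letters and show no binding. The promoters of 4 members are printed because these genes, the partners of the anaphase-promoting complex Cdc20 and Ube2c and the kinetochore proteins Cenpe and Cenpf, are among those that differed between heavy-chain classes in the results. They read 5′ to 3′ on the gene's strand, with TTTGAA and CCAAT, or their reverse complements TTCAAA and ATTGG, in capitals.
Cdc20 (chr4:118437294-118437593, minus strand): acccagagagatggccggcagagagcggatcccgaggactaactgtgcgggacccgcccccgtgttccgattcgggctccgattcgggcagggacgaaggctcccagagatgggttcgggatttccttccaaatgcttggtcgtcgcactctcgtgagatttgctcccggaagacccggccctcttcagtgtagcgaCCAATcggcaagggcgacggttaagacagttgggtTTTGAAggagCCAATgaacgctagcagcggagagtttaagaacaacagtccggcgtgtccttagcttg
Ube2c (chr2:164769679-164769978, plus strand): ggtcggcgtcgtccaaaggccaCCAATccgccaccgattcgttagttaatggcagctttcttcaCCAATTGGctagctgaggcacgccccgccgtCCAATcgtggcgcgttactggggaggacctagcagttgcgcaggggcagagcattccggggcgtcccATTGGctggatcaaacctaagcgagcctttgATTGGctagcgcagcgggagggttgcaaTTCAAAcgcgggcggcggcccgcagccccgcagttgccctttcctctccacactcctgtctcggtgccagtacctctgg
Cenpf (chr1:189688037-189688336, minus strand): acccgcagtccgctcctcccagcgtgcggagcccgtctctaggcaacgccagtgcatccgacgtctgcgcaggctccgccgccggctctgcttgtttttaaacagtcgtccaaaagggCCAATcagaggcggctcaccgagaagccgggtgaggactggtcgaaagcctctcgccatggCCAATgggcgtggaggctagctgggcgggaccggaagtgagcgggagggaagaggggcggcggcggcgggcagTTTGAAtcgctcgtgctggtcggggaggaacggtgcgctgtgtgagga
Cenpe (chr3:135212313-135212612, plus strand): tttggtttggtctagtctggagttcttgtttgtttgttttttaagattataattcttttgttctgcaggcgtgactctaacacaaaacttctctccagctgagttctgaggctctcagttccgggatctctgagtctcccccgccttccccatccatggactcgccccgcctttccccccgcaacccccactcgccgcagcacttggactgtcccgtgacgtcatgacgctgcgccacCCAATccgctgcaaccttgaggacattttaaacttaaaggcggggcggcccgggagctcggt
Cdc20 carries TTTGAA with its first base 18 before the start, and Ube2c carries it on the other strand 29 before the start. Ube2c has 6 CCAAT matches, 2 of which overlap as CCAATTGG, while Cdc20 and Cenpf have 2 each. Cenpe has 1 CCAAT and no TTTGAA in this window.

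All members were present, at low levels. In each pair of values by tissue, here and throughout, the female library comes first. The summed members had bone marrow levels of 2137 and 1879.5 CPM, spleen levels of 2388 and 2199 and thymus levels of 1946 and 2455. Both bone marrow sums lay below both spleen sums, and the thymus sums overlapped the other tissues, with male thymus highest and male bone marrow lowest. With a light-chain share of at least 80% the order of bone marrow (2098 and 1756) and spleen (1924 and 1653) turned within each sex. By their mean over the 6 libraries, 7 members lay at 100 CPM or more, 32 between 10 and 100, and 13 under 10. The 10 most abundant held 60.8% of the 101296 member UMIs, and 48 members had UMIs in every library. The 4 others (Ect2, Nek2, Kif2c and Psrc1) were at 0 in female thymus, where a count of 0 allows up to 11.3 CPM (3 UMIs), above most of their levels elsewhere.

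Genes of chromosome structure led the levels. Mki67, which coats mitotic chromosomes and is the standard marker of proliferation, had bone marrow levels of 213 and 186 CPM, spleen levels of 203 and 294 and thymus levels of 321 and 239.7. Top2a, the topoisomerase that untangles sister DNA, had bone marrow levels of 109 and 107 CPM, spleen levels of 115 and 141 and thymus levels of 94.5 and 151. Both varied less than 2-fold across libraries. Both bone marrow libraries lay below both thymus libraries for Mki67 and below both spleen libraries for Top2a, and the other tissue pairs overlapped. Hmgb2, a DNA-bending chromatin protein, had bone marrow levels of 213 and 166 CPM, spleen levels of 278 and 127 and thymus levels of 75.6 and 184, and was lower in the male than in the female library of bone marrow and spleen but higher in thymus. Smc4, the core of condensin, was the steadiest of this role, from 75.1 to 95.9 CPM. Anp32e, a chaperone of the histone H2A.Z, ranged from 83.1 to 129.7 CPM, and Ctcf, an insulator protein also used outside mitosis, from 72 to 174. Cbx5 (heterochromatin protein HP1 alpha), the condensin subunit Ncapd2 and the phosphatase-targeting protein Cdca2 averaged 29.2, 25.1 and 16.8 CPM.

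Among the 15 spindle and microtubule genes, only the tubulin Tubb4b was abundant, with bone marrow levels of 257 and 236 CPM, spleen levels of 269 and 195 and thymus levels of 178 and 239.7. The other 14 averaged from 1.01 (Psrc1) to 43.4 CPM (Ckap5, a microtubule polymerase). The motor Kif11, which pushes the spindle poles apart, had bone marrow levels of 19.4 and 18.3 CPM, spleen levels of 24.2 and 31.04 and thymus levels of 34.01 and 22.7. Of the nuclear envelope genes, Lbr, the lamin B receptor, had bone marrow levels of 90.8 and 105 CPM, spleen levels of 78.9 and 139 and thymus levels of 155 and 158. Tmpo, a lamina-associated protein, ranged from 60.5 to 95.9 CPM, and Rangap1 from 26.05 to 30.8, the smallest ratio of highest to lowest level (1.18) of any member.

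The regulators of the cycle were lower. Cdk1 itself had bone marrow levels of 30.4 and 28.3 CPM, spleen levels of 40.96 and 23.8 and thymus levels of 18.9 and 38.7. Its small partner proteins Cks1b and Cks2 averaged 48.6 and 29.5 CPM, cyclin B2 (Ccnb2) 23.00 and Cdc25c 5.74. Of the kinases and the chromosomal passenger complex, Birc5 (survivin) averaged 38.1 CPM, Cdca8 (borealin) 21.1, Aurkb 20.4 and Aurka 12.6, with Bub1, Nek2 and Ttk under 10. Among kinetochore genes the CENP-A chaperone Hjurp averaged 46.9 CPM, the centromeric histone Cenpa 33.3, and the microtubule-binding pair Nuf2 and Ndc80 8.17 and 7.81. Cytokinesis genes were among the lowest, with Kif23 at 14.4, Ect2 at 8.87 and Anln at 8.05 CPM.

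Ube2c, the ubiquitin-conjugating enzyme of the anaphase-promoting complex, spread most among members with UMIs in every library, with bone marrow levels of 81.98 and 51.8 CPM, spleen levels of 118 and 35.3 and thymus levels of 7.56 and 85.8. Its activator Cdc20 had bone marrow levels of 24.98 and 21.6 CPM, spleen levels of 41.3 and 28.8 and thymus levels of 7.56 and 28.6. Female thymus was lowest for both, and it was the lowest library for 29 of the 52 members and the highest for 12. With 515 member UMIs in that library, 2 of them from each of these genes, its single-gene levels are the least precise.

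**Figure D1:**
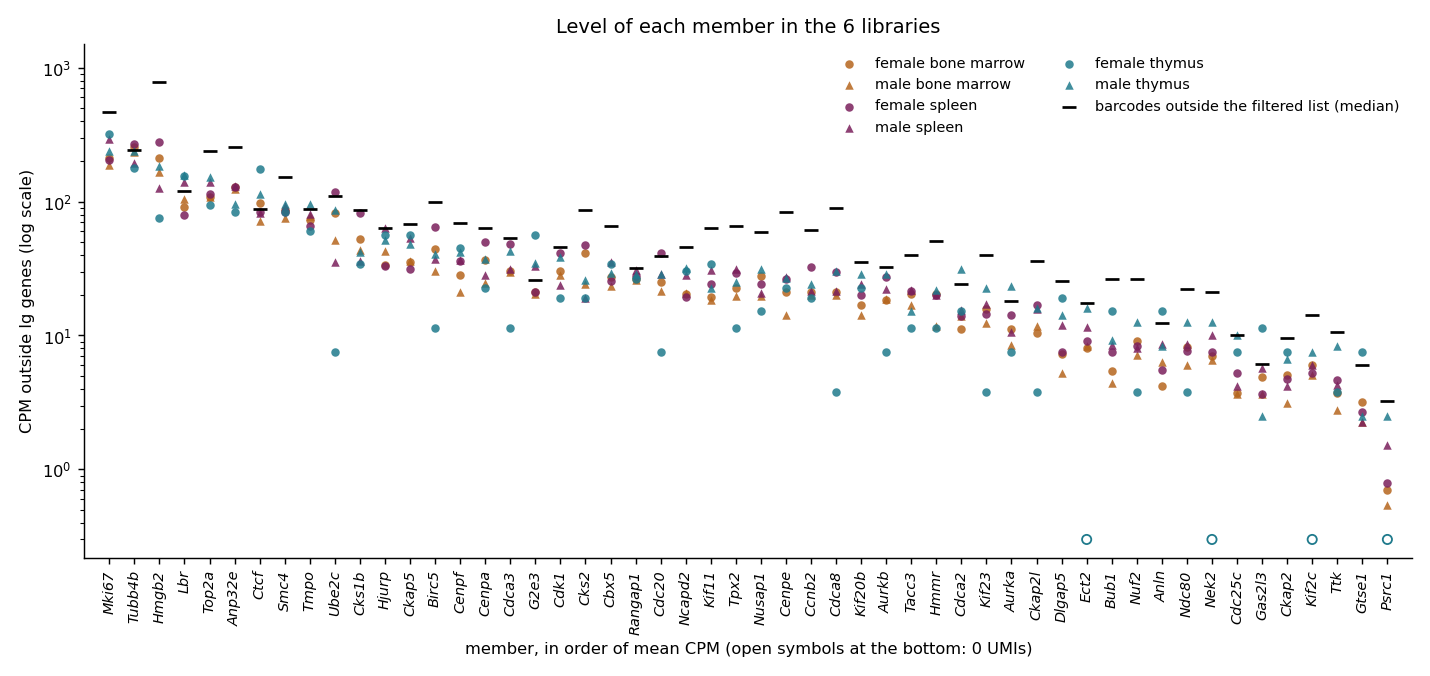
Level of each of the 52 members in the 6 libraries, as CPM outside immunoglobulin genes on a log axis, in order of the mean; circles are female and triangles male libraries, open symbols at the bottom are 0 UMIs, and black bars give the median over libraries of the same gene in barcodes outside the filtered lists. Mki67 averaged 243 CPM and Psrc1 1.01, and for 39 members the black bar lies above all 6 libraries.

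RNA free in the suspension was richer in these genes than the barcodes used. In barcodes outside the filtered lists with under 100 UMIs, the members summed to bone marrow levels of 4622 and 4328 CPM, spleen levels of 4434 and 4178 and thymus levels of 2446 and 4456. The level in the barcodes used was 0.434 to 0.796 times that. For 49 of the 52 members the median level in free RNA exceeded the mean level in the barcodes used. Each of these barcodes held little RNA: in female thymus, 434740 of them held 3076127 UMIs outside immunoglobulin genes. The amount of free RNA within the barcodes used was not measured. A few member UMIs in a barcode are therefore not read here as expression by that cell.

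To compare barcodes at equal depth, 1000 UMIs outside immunoglobulin genes were drawn from each. Most barcodes had few member UMIs: 7409 of the 8715 had 0 to 2, and 796 had 3 or 4. A minority had many, up to 55. Barcodes with at least 5, called the dividing range here, numbered 510, of which 135 lay just inside with 5 or 6 and 290 had 10 or more. It is a range of a count and not a cell type. A barcode made up only of free RNA, at the levels given, would come near the cut in every library but female thymus. Of the bone marrow barcodes, the dividing range held 5.49% (4.29 to 6.91%, an exact 95% binomial interval, as for the other shares) in the female library and 3.72% (2.87 to 4.75%) in the male one. In spleen it held 7.26% (6.43 to 8.16%) and 5.297% (4.32 to 6.42%). In thymus it held 5.61% (2.09 to 11.8%) and 5.903% (3.48 to 9.28%). Intervals cover counting error only. Both bone marrow shares lay below both thymus shares, though within counting error, and the spleen shares overlapped the other tissues. With 2 libraries a tissue no permutation test could pass 0.05. With a minimum of 10 the shares were 2.703 to 3.82%, and without barcodes low in immunoglobulin or carrying markers of other lineages, a setting added after the data were seen, they were 2.33 to 6.64%, lowest in female thymus.

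**Figure D2:**
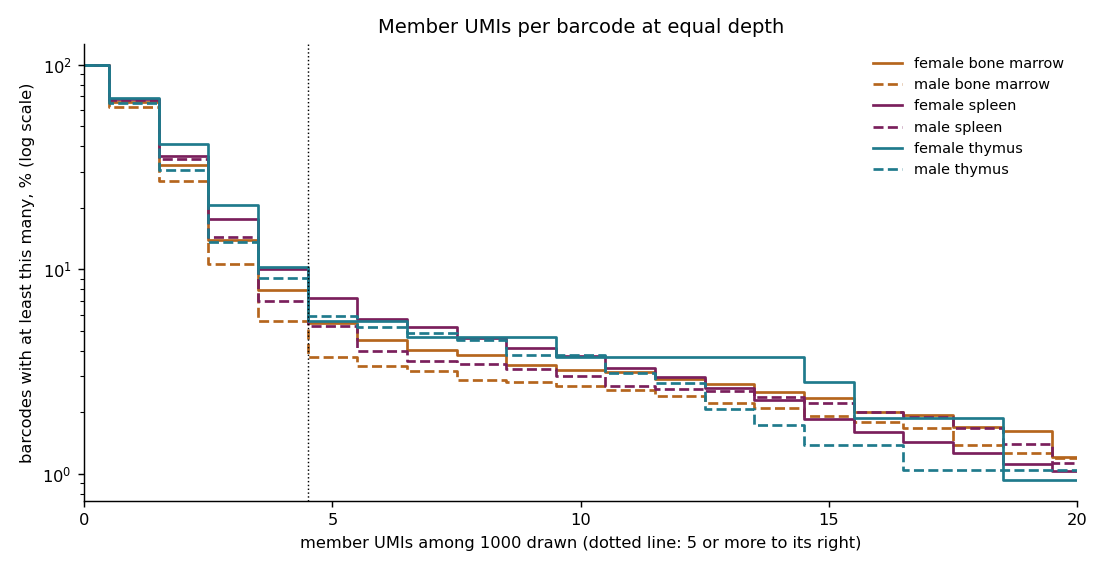
Share of the barcodes used (log axis, %) that had at least the given number of member UMIs among 1000 drawn, for each library; colours mark tissues, solid lines female and dashed lines male libraries, and the dotted line the lower limit of 5. The 6 lines run close together, and between 3.72 and 7.26% of barcodes lie to the right of the dotted line.

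The members gathered in the same barcodes to very different degrees. For each member, the share of its drawn UMIs was taken that fell in barcodes with at least 5 UMIs of the other 51 members, which leaves its own UMIs out of the choice. For comparison, the dividing range itself was 5.85% of the barcodes used. The median share over the 52 members was 64.5%. For 5 members 80% or more of the UMIs fell there, for 30 between 50 and 80%, and for 17 under 50%. These shares are a description of these barcodes, with exact 95% binomial intervals that cover counting error only, and abundant genes have more UMIs outside.

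The 5 members at 80% or more were Kif2c, Ckap2, Cenpf, Anln and the entry phosphatase Cdc25c, with 24 of its 30 UMIs there (interval 61.4 to 92.3%). Cenpf, a kinetochore and nuclear matrix protein of G2, had 84.3% (interval 78.6 to 88.9%) of its 210 drawn UMIs there, a level of 349.8 CPM in those barcodes and 4.02 outside. The microtubule depolymerase Kif2c had 90.6% (interval 74.98 to 98.02%), Ckap2 84.8% (interval 68.1 to 94.9%) and the contractile ring scaffold Anln 83.3% (interval 70.7 to 92.1%), on 32 to 54 UMIs each. Kif11 had 76.8% (interval 69.3 to 83.2%), Cdk1 70.9% (interval 62.7 to 78.3%), Cdc20 69.4% (interval 62.4 to 75.8%) and Ube2c 67.1% (interval 61.9 to 72.1%). By role, the medians were 72.9% for cytokinesis, 69.9% for mitotic kinases and the passenger complex, 65.9% for spindle genes and 60.9% for kinetochore genes.

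Other members were spread over barcodes with few other member UMIs. The 3 nuclear envelope genes had the lowest shares of any role: 15.7% (interval 13.6 to 18.1%) for Lbr, 23.3% (interval 19.8 to 26.98%) for Tmpo and 24.9% (interval 19.5 to 30.96%) for Rangap1. Ctcf had 10.6% (interval 8.54 to 12.9%), Anp32e 12.6% (interval 10.6 to 14.8%), Tubb4b 20.2% (interval 18.3 to 22.3%), the G2-specific ubiquitin ligase G2e3 21.3% (interval 16.7 to 26.4%) and Cbx5 21.7% (interval 16.9 to 27.2%). These 8 make up the members under 25%. Mki67 lay in between, with 47.1% (interval 44.8 to 49.5%) of its 1795 drawn UMIs, and 9.88% of the remaining barcodes held at least 1 Mki67 UMI. The part of free RNA in these was not tested. Cks1b (28.8% (interval 23.98 to 34.1%)) and Cks2 (40.00% (interval 32.3 to 48.03%)) were lower than Cdk1, to which their proteins bind.

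**Figure D3:**
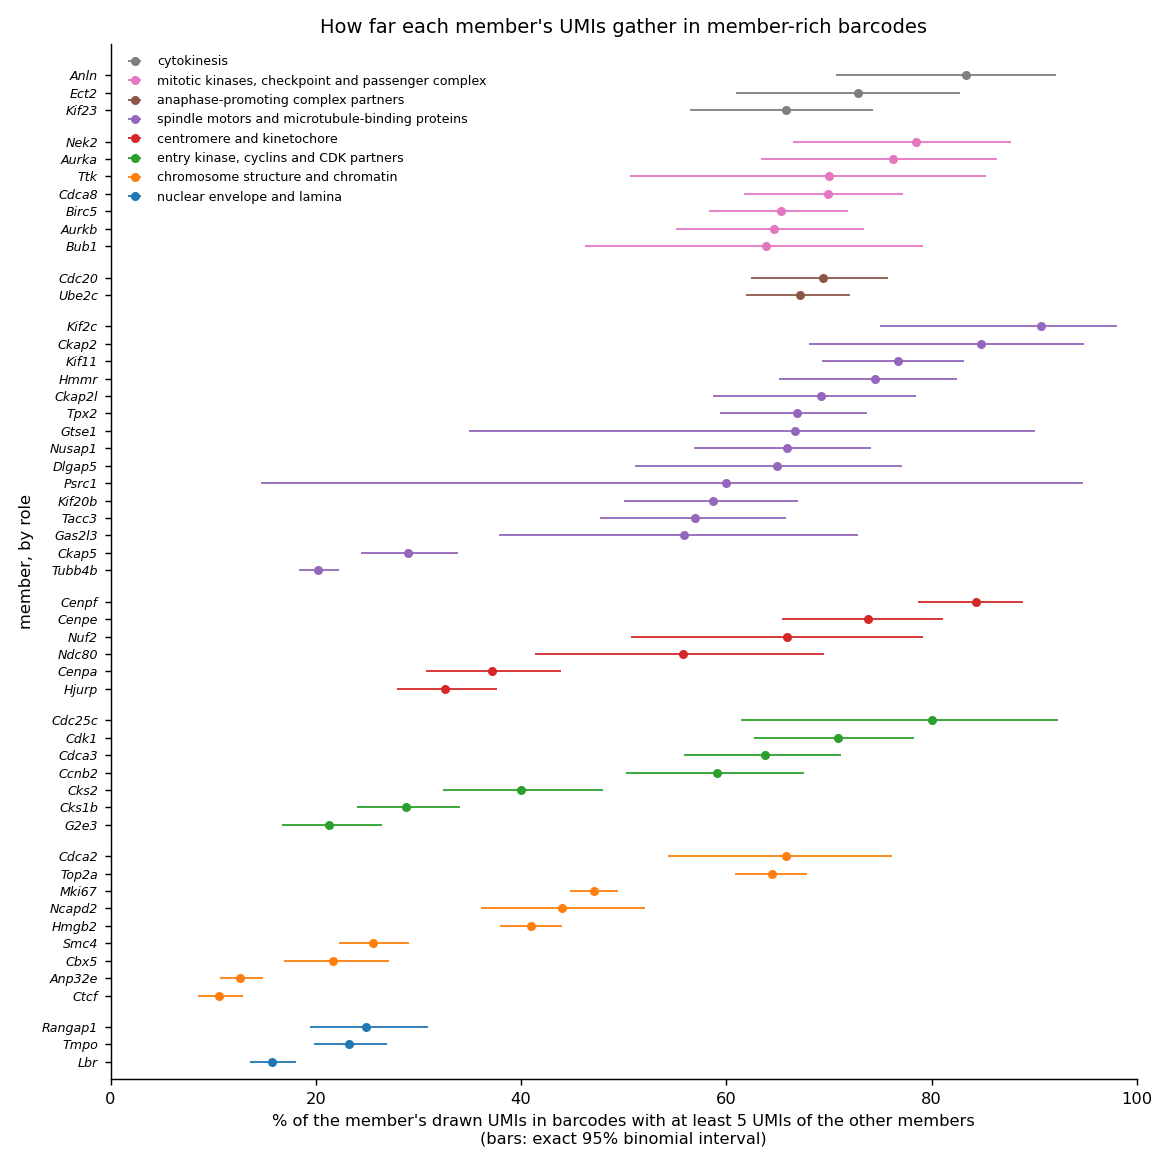
Share of each member's drawn UMIs (%) that fell in barcodes with at least 5 UMIs of the other members, by role; points are members and bars exact 95% binomial intervals. Cytokinesis and mitotic kinase genes lie above 60%, while nuclear envelope genes lie under 25% and chromatin genes range from 10.6 to 65.8%.

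Barcodes richer in mitosis genes outside the list also held more member UMIs on average. Among barcodes with at least 3 drawn UMIs of 50 other mitosis genes, the members averaged 8.56 to 11.2 UMIs in 1000 over the 6 libraries, and 0.989 to 1.36 among the rest. The SD over the former barcodes was 8.02 to 10.1, nearly as large as the means. How many of them lay in the dividing range is not given here. Both lists were read in the same barcodes and share their depth.

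Barcodes in the dividing range held less immunoglobulin and more other RNA. Their median share of immunoglobulin UMIs was 26.9 ± 6.70% (SD, n = 6 libraries), against 48.6 ± 6.14% for the other barcodes, and was lower in 6 of 6 libraries (exact paired permutation test, two-sided, p = 0.03125, also after Benjamini-Hochberg adjustment over 2 tests, the smallest 6 pairs allow). The median number of UMIs outside immunoglobulin genes was 5634 ± 2109 in the range and 3084 ± 768 outside, higher in 6 of 6 libraries (exact paired permutation test, two-sided, p = 0.03125). Barcodes with under 20% immunoglobulin made up 8.16 (male spleen) to 66.7% (female thymus) of the range. They made up 0.114 to 14.9% of the other barcodes in the same 2 libraries, again the lowest and highest. The part of such barcodes in both medians was not tested. The draw of equal UMIs removes depth from the count itself, and the part of the immunoglobulin share was not tested.

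Other named lists, of cell type markers and of cell cycle brakes, also differed across that range. They were read from edgeR's quasi-likelihood test on sums per library with library as a block. In it, 24.6% of 8800 genes were called higher and 22.2% lower at an adjusted p of 0.05. Of 8 ASC markers, 5 were lower in the dividing range and none higher. Jchain, which links IgM and IgA into polymers, had 15795, 10906, 28689.5, 14766, 5388 and 36969 CPM in the range, for both libraries of bone marrow, then of spleen, then of thymus. In the other barcodes it had 97989.7, 105843, 98619.5, 65149.6, 51005 and 74737, higher in every library. Its log2 fold change was -2.52 (SE 0.49, edgeR adjusted p = 2.57e-05). Tnfrsf17 (BCMA, a survival receptor of plasma cells) fell by 1.44, Sdc1 by 0.97, Slamf7 by 0.69 and Xbp1 by 0.64 on the log2 scale. Prdm1, Irf4 and Mzb1 did not pass the test.

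Of 6 B cell markers tested, 3 were higher in the dividing range and 2 lower. Those higher included the class II genes H2-Aa and H2-Ab1, with log2 fold changes of 0.86 (SE 0.19) and 0.55 (SE 0.22). Ms4a1 (CD20) and Bach2 fell by 0.79 and 0.98. Of 16 brakes of the cell cycle tested, 9 were higher and 1 lower. Those higher included the inhibitors Cdkn2c (1.41, SE 0.14) and Cdkn2d (1.66, SE 0.16), the Cdk1-inhibiting kinases Wee1 (1.03, SE 0.16) and Pkmyt1 (2.48, SE 0.19), the MuvB subunits Lin9 (1.95, SE 0.27) and Lin54 (1.18, SE 0.16), and Rbl1 (2.46, SE 0.19), E2f4 (0.78, SE 0.14) and Fzr1 (1.47, SE 0.13), on the log2 scale. The MuvB subunits also serve activation of mitotic genes in dividing cells, so not all of this list acts as a brake there. Cdkn1b (p27), an inhibitor of resting cells, fell by 0.40. Beside these, 2 of 4 neutrophil markers tested were higher in the range. S100a8, which did not pass, stood at 3431 CPM in its male bone marrow barcodes against 191 outside, but at 17.6 against 197 in female bone marrow. Of 3 macrophage markers tested, 1 was higher and 1 lower, and of 2 germinal centre B cell markers 1 was higher and 1 lower. The 1 erythroid marker tested was lower. The T cell list had 1 gene tested and none called. The part of barcodes of other lineages in the differences was not tested. Without barcodes low in immunoglobulin or carrying markers of other lineages, 1 B cell marker was called higher and 2 lower. DESeq2 called 1 higher and 3 lower, and without any 1 of the bone marrow or spleen libraries 1 was higher and 1 or 2 lower.

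No member passed the test between tissues or between sexes. All 52 were tested in a model of tissue and sex over the 6 libraries, which has 2 residual degrees of freedom. Between thymus and bone marrow 0 of 52 members were called, against 0.765% of the 11239 genes, and 6 had an unadjusted p under 0.05. Between thymus and spleen 0 were called against 0.632% of genes, with 1 unadjusted. Between spleen and bone marrow 0 were called against 0.436%, with 9 unadjusted, and between male and female 0 against 0.427%, with 4 unadjusted. DESeq2 called 0 in each comparison. With at most 0.765% of all genes called, 0 of 52 is near the background and sets the members apart from other genes in no comparison. Here and below, counts at an unadjusted p are given without the share of all genes at that threshold. Among the 10 most abundant members the differences ran from Anp32e at -0.72 (SE 0.33) to Ctcf at 0.46 (SE 0.31) between thymus and bone marrow, and from Anp32e at -0.78 (SE 0.33) to Ctcf at 0.46 (SE 0.30) between thymus and spleen. They ran from Tubb4b at -0.05 (SE 0.35) to Mki67 at 0.32 (SE 0.34) between spleen and bone marrow, and from Ube2c at -0.75 (SE 0.41) to Lbr at 0.22 (SE 0.25) between male and female. Differences of the size of those seen may be too small to detect with 6 libraries.

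The members leaned to spleen over bone marrow without passing. Their median log2 difference was 0.29 (all genes 0.03), and 47 of 52 were above 0, but the median was 0.02 at a light-chain share of at least 80% and -0.38 over the 40 members tested in IgG barcodes alone. Cenpe had bone marrow levels of 20.9 and 14.1 CPM, spleen levels of 26.4 and 27.1 and thymus levels of 22.7 and 26.9, with both bone marrow libraries below both spleen libraries. Its spleen minus bone marrow difference was 0.65 (SE 0.25, edgeR adjusted p = 0.66). Cenpf had bone marrow levels of 28.5 and 21.1 CPM, spleen levels of 35.7 and 36.6 and thymus levels of 45.3 and 42.1, with both bone marrow libraries below both spleen libraries, and a difference of 0.58 (SE 0.25, edgeR adjusted p = 0.86). For thymus the medians were 0.16 against bone marrow (all genes -0.02) and -0.13 against spleen (all genes -0.04). Without male thymus they were -0.91 and -1.07, and without female thymus 0.41 and 0.15, so the sign of both depends on single libraries, and it also turned in IgG barcodes alone (-0.07 and 0.24). The neutrophil markers given for bone marrow move with tissue. So do T cell markers, which summed to 79.4 and 29.4 CPM in thymus and to between 8.58 and 12.8 CPM elsewhere, with 1 of 4 tested (Trbc2, a T cell receptor constant gene) called higher in thymus than in either tissue. Of the 9, 1 to 3 were at 0 in each library, and the part of both lists was not tested.

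By sex, the members leaned to female, with a median male minus female difference of -0.23 (all genes 0.02; 0.58 over the 15 members tested in IgA barcodes alone), or -0.01 (all genes 0.22) with scaling by library size alone. Cks2, the small Cdk1 partner, came nearest to the threshold. It had bone marrow levels of 41.3 and 24.3 CPM, spleen levels of 47.7 and 18.9 and thymus levels of 18.9 and 26.1. The male library was lower in bone marrow and spleen and higher in thymus, with a fitted difference of -1.08 (SE 0.27, edgeR adjusted p = 0.079). The 7 genes of the entry kinase, cyclins and Cdk partners were all below 0, with a median of -0.47. Where only barcodes with at least 10% ribosomal protein UMIs and under 10% mitochondrial UMIs were used, 15 members were lower in male. The median ribosomal share was 10.2% in female spleen and 1.93 to 3.86% in the other libraries, so most barcodes of those libraries failed this setting. Without female or male thymus the median male minus female difference was -0.34.

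Between heavy-chain classes many members differed, with IgG barcodes higher than IgA and IgM barcodes. Each barcode was given the class of its leading heavy constant gene: 7093 IgM, 491 IgA and 1131 IgG. Counts were summed by library and class where at least 20 barcodes were present, giving 16 sums, with library as a block and 8 residual degrees of freedom. IgA and IgG of female thymus, with 18 and 17 barcodes, were left out. Of the members, 50 were tested and Gtse1 and Psrc1 were too low. The 2 comparisons with IgG share the IgG sums, so they are not independent.

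In summed levels, IgG exceeded IgA in 6 of 6 libraries and IgM in 5 of 6. In female bone marrow the members summed to 2003 CPM in IgM, 806 in IgA and 4281 in IgG barcodes. In male bone marrow the sums were 1827, 2266 and 2963, in female spleen 2295, 1897 and 2866, and in male spleen 2176, 2156 and 2379. In thymus they were 2362, 1008 and 1145 in female and 2065, 2840.1 and 4223 in male. IgG was thus 1.09 to 2.14 times IgM in 5 libraries and 0.48 times in female thymus, where IgG had 48 member UMIs. The gap was widest in female bone marrow and narrowest in male spleen, where the counting intervals of IgG and IgA overlapped, as they did in female thymus. Some of these sums rest on few barcodes. IgG had 68 in male bone marrow and 35 in male thymus, and IgA 60 in male bone marrow, 36 in male spleen and 26 in male thymus.

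**Figure D4:**
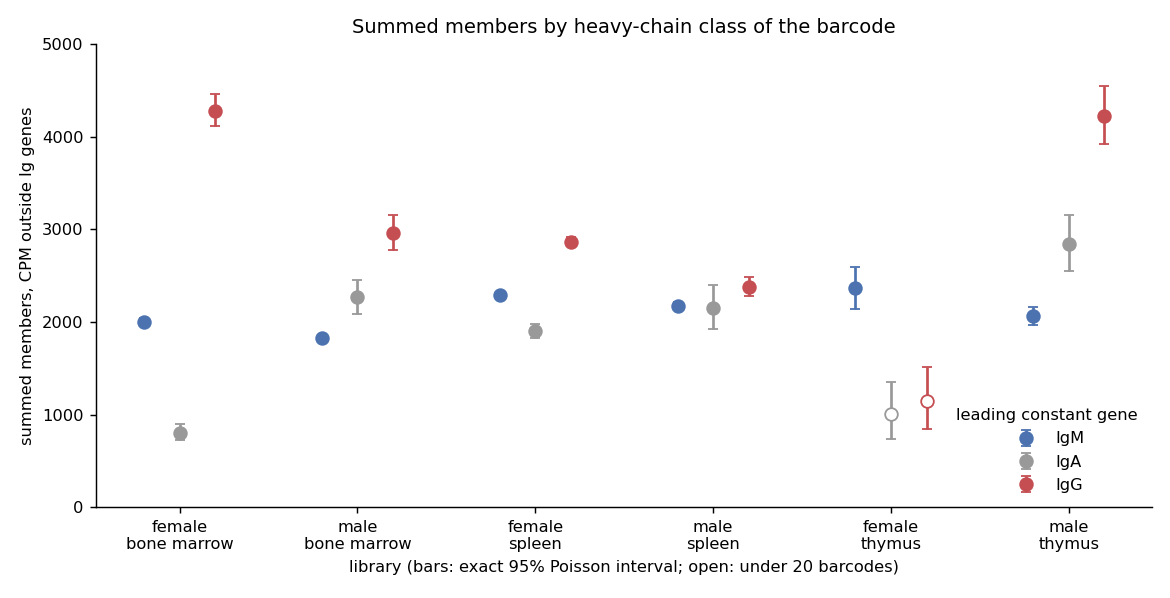
Summed members (CPM outside immunoglobulin genes) in IgM, IgA and IgG barcodes of each library, with exact 95% Poisson intervals for counting error; open points are sums of under 20 barcodes, which were not tested. IgG is the highest class in 5 libraries, from 2379 CPM in male spleen to 4281 in female bone marrow, and IgM is highest in female thymus.

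Against IgA, 20 of the 50 members were higher in IgG and 0 lower, where 5.62% of the 9366 genes tested were called higher and 4.41% lower. The median log2 difference of the members was 0.85, against 0.01 for all genes, and 0.52 without female bone marrow. Against IgM, 22 were higher in IgG and 0 lower, where 5.23% of genes were called in that direction and 6.3% in the other, and the members' median IgM minus IgG difference was -0.60 (all genes -0.01). Between IgM and IgA 0 members were called, where 7.98% of genes were, with 3 at an unadjusted p under 0.05, a median of 0.23 (-0.02 without barcodes of other lineages) and 0 calls by DESeq2. Among the 10 most abundant members the IgM minus IgA difference ran from Smc4 at -0.04 (SE 0.14) to Mki67 at 0.47 (SE 0.20). The members higher in IgG in both comparisons were 16: Birc5, Cdc20, Cdca3, Cdca8, Cenpe, Cenpf, Ckap2l, Cks1b, Cks2, Lbr, Mki67, Nusap1, Tacc3, Tmpo, Top2a and Ube2c. These are 80% of the 20 and 72.7% of the 22. Aurkb, Hmgb2, Kif23 and Kif2c passed only against IgA, and Cdk1, Ect2, G2e3, Rangap1, Smc4 and Tpx2 only against IgM, which does not show that they differ between the comparisons.

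The partners of the anaphase-promoting complex were called in both. Cdc20 had 55.8, 61.5, 55.7, 51.5 and 76.4 CPM in IgG sums, 2.38, 18.5, 28.8, 33.2 and 16.1 in IgA sums and 23.4, 20.2, 38.4, 25.7, 11.2 and 21.2 in IgM sums, in the order of the libraries used before, without the sums left out. Every IgG sum exceeded every IgM and IgA sum. Its IgG minus IgA difference was 1.37 (SE 0.26, adjusted p = 5.34e-04) and its IgM minus IgG difference -0.92 (SE 0.16, adjusted p = 8.04e-05), by edgeR. Ube2c had 128, 191, 155, 48.2 and 376 CPM in IgG sums, 7.14, 81.6, 76.5, 39.8 and 105 in IgA sums and 83.3, 45.6, 111, 33.6, 5.58 and 27.9 in IgM sums. Here IgG was above IgM and IgA within each of the 5 libraries, but male spleen IgG was below IgM of female bone marrow and female spleen and below IgA of male bone marrow, female spleen and male thymus. The differences were 1.39 (SE 0.35, adjusted p = 0.008) and -1.06 (SE 0.24, adjusted p = 0.002) by edgeR.

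Kinetochore genes followed for 2 of 6 members. Cenpf had 81.01, 86.1, 51.9, 52.7 and 93.97 CPM in IgG sums, 4.76, 51.9, 23.5, 39.8 and 40.3 in IgA sums and 24.4, 17.7, 32.3, 34.4, 67.01 and 32.4 in IgM sums, with IgG above IgM and IgA within each of the 5 libraries, and differences of 1.21 (SE 0.29, adjusted p = 0.0065) and -1.10 (SE 0.18, adjusted p = 4.34e-05) by edgeR. Cenpe, a motor of the kinetochore, had 68.4, 27.7, 35.4, 35.9 and 41.1 CPM in IgG sums, 7.14, 18.5, 12.1, 39.8 and 16.1 in IgA sums and 16.6, 13.5, 25.1, 25.7, 27.9 and 25.7 in IgM sums, with IgG below IgA in male spleen, and differences of 1.43 (SE 0.32, adjusted p = 0.0028) and -0.84 (SE 0.18, adjusted p = 0.0013) by edgeR. Cenpa, Hjurp, Nuf2 and Ndc80 did not pass against either class.

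Among chromatin genes, Mki67 and Top2a passed against both. Mki67 had 567, 317, 233, 291 and 241 CPM in IgG sums, 68.98, 159.5, 165, 285 and 137 in IgA sums and 183, 182, 198, 294, 413 and 254 in IgM sums. IgG was above IgM in female bone marrow, male bone marrow and female spleen, and below it in male spleen and male thymus. Its differences were 1.02 (SE 0.21, adjusted p = 0.0014) and -0.55 (SE 0.17, adjusted p = 0.026) by edgeR. The second call was lost in 10 of 18 alternatives, over which the difference ran from -0.76 to -0.19 and the adjusted p reached 0.48. Top2a had 338, 129, 146, 162 and 264 CPM in IgG sums, 14.3, 171, 81.8, 133 and 178 in IgA sums and 90.05, 105, 108, 138, 128 and 126 in IgM sums, with IgG below IgA in male bone marrow, and differences of 1.01 (SE 0.27, adjusted p = 0.013) and -0.79 (SE 0.19, adjusted p = 0.0053) by edgeR. Hmgb2 differed from IgA by 0.83 (SE 0.22, adjusted p = 0.014) and Smc4 from IgM by -0.42 (SE 0.11, adjusted p = 0.0071), by edgeR. Ctcf, Anp32e, Cbx5, Ncapd2 and Cdca2 did not pass. Ctcf had IgG minus IgA and IgM minus IgG differences of 0.41 (SE 0.15) and -0.29 (SE 0.11), and Anp32e of 0.31 (SE 0.14) and -0.14 (SE 0.11). The differences that did not pass were 0.37 (SE 0.15) for Smc4 against IgA and -0.45 (SE 0.17) for Hmgb2 in IgM minus IgG.

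Of the entry genes, 3 of 7 were higher against IgA and 5 of 7 against IgM. Cks2 had 63.01, 33.8, 63.3, 28.01 and 93.97 CPM in IgG sums, 11.9, 22.3, 34.1, 0 and 40.3 in IgA sums and 41.4, 24.03, 44.5, 18.2, 11.2 and 11.2 in IgM sums, with IgG highest in each of the 5 libraries. Its differences were 1.14 (SE 0.28, adjusted p = 0.0065) and -0.65 (SE 0.17, adjusted p = 0.011) by edgeR. Cdk1 passed against IgM, with -0.81 (SE 0.19, adjusted p = 0.0027) by edgeR, and had an IgG minus IgA difference of 0.86 (SE 0.29, adjusted p = 0.052). In male bone marrow and male thymus its IgA level exceeded its IgG level. Cks1b had IgG minus IgA and IgM minus IgG differences of 0.82 (SE 0.21) and -0.50 (SE 0.14), and Cdca3, which promotes the loss of the Cdk1-inhibiting kinase Wee1, of 0.86 (SE 0.27) and -0.63 (SE 0.17). IgA exceeded IgG in male thymus for both Cks1b and Cdca3, in male spleen for Cks1b and in male bone marrow for Cdca3. G2e3 passed against IgM with -0.55 (SE 0.15). Ccnb2 and Cdc25c did not pass.

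The other roles each had members called. Of the mitotic kinases and passenger complex, Birc5 and Cdca8 passed against both classes and Aurkb against IgA, with IgG minus IgA differences of 0.88 (SE 0.28), 1.01 (SE 0.33) and 0.99 (SE 0.28), while Aurka, Bub1, Nek2 and Ttk did not pass. The IgM minus IgG differences were -0.77 (SE 0.18) for Birc5 and -0.60 (SE 0.20) for Cdca8. IgA exceeded IgG in male thymus for Aurkb and Cdca8, and in male bone marrow for Cdca8. All 3 nuclear envelope genes were higher than in IgM, and Lbr and Tmpo also than in IgA, with IgG minus IgA differences of 0.57 (SE 0.17) and 0.66 (SE 0.18). The IgM minus IgG differences were -0.41 (SE 0.12) for Lbr, -0.45 (SE 0.12) for Tmpo and -0.49 (SE 0.16) for Rangap1. IgA exceeded IgG in male spleen for Lbr and in male thymus for Tmpo. Of 13 spindle genes tested, Nusap1, Tacc3 and Ckap2l passed against both, with IgG minus IgA differences of 1.29 (SE 0.38), 1.05 (SE 0.34) and 1.22 (SE 0.39), Kif2c against IgA and Tpx2 against IgM. The IgM minus IgG differences were -1.01 (SE 0.22) for Nusap1, -0.63 (SE 0.20) for Tacc3, -0.93 (SE 0.23) for Ckap2l and -0.80 (SE 0.21) for Tpx2. IgA exceeded IgG in male bone marrow for Nusap1, in male spleen for Ckap2l and Tacc3, and in male thymus for Tacc3. In the sums tested, IgM exceeded IgG in male spleen for Cdca8 and Tacc3, and in male thymus for Tmpo. The tubulin Tubb4b did not pass, with 0.47 (SE 0.16) for IgG minus IgA and -0.22 (SE 0.13) for IgM minus IgG. Kif2c had 3 UMIs in all over the 5 IgA sums, at 0 in 3 of them, so its fitted difference of 2.73 (SE 0.75) depends on the prior count and gives no fold. Of the cytokinesis genes, Kif23 passed against IgA with 1.51 (SE 0.41) and Ect2 against IgM with -0.88 (SE 0.25). Kif23 had 17 UMIs over the 5 IgA sums, and its IgG level was below IgA in male bone marrow and male spleen.

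**Figure D5:**
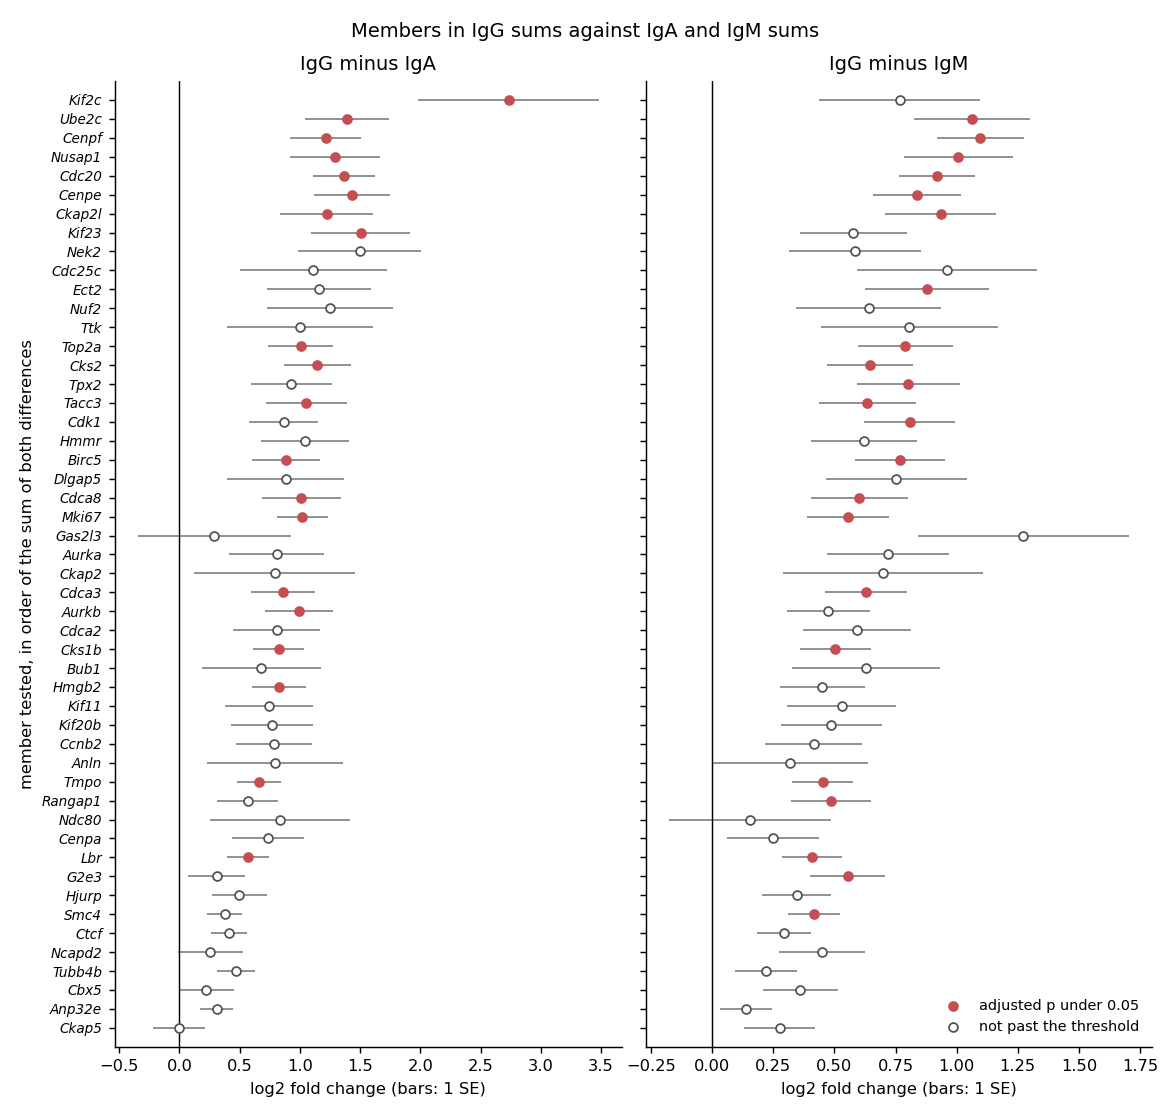
Log2 differences of the 50 members tested, IgG minus IgA on the left and IgG minus IgM on the right, with 1 SE; filled points passed an adjusted p of 0.05 by edgeR, 20 on the left and 22 on the right. Nearly all points lie to the right of 0, and the medians are 0.85 for IgG minus IgA and, with its sign turned, 0.60 for IgG minus IgM.

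Members whose UMIs gathered in the dividing range showed larger median class differences, while calls did not clearly follow. The 33 tested members with at least 50% of their drawn UMIs there had a median IgG minus IgA difference of 1.001 and an IgM minus IgG difference of -0.718, while the 17 others had 0.497 and -0.416. Of the 33, 14 were called against IgA and 14 against IgM, and of the 17 others 6 and 8. Over all genes 5.62% and 5.23% were called in those directions. Gathering and class differences come from the same barcodes, so this is a description. The dividing range held 14.6% of IgG barcodes in female bone marrow (18 of 123, interval 8.91 to 22.1%), against 4.97% of IgM and 0 of 108 IgA, which allows a share of up to 2.78% by a limit of 3 counts (exact interval up to 3.36%). In female spleen it held 10.1% of IgG, 6.64% of IgM and 5.76% of IgA, and in male bone marrow 5.88%, 3.64% and 3.33%. In male spleen the shares were 6.52%, 5.15% and 5.56%, and in male thymus 5.71%, 6.17% and 3.85%, in the same order. Outside female libraries the counts behind the IgG and IgA shares were small. They were 4 and 2 barcodes in male bone marrow, 12 and 2 in male spleen, and 2 and 1 in male thymus. In female thymus the range held 8.33% of IgM barcodes (6 of 72), the highest IgM share of the 6 libraries. Its interval, 3.12 to 17.3%, also covers the IgM shares of the other libraries. Immunoglobulin made up under 20% of the UMIs in 4 of these 6 barcodes. The range held none of the 17 IgG and 18 IgA barcodes there, which allows up to 17.6 and 16.7% by the same limit (exact intervals up to 19.5 and 18.5%).

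By constant gene over all libraries, 10.4% of Ighg2b (52 of 498), 8.22% of Ighg2c (30 of 365) and 11.6% of Ighg3 barcodes (21 of 181) lay in the range. The share was 4.598% for Ighg1 (4 of 87), 5.41% for Ighm and 3.87% for Igha. Ighg1 came mostly from female spleen, with 66 of the 87, so these shares mix libraries. Among the 18 IgG barcodes in the range of female bone marrow, 10 used the same heavy-chain V gene and 4 V genes were seen, whereas the 71 in female spleen used 36, with at most 6 on 1 gene. Whether the barcodes with a shared V gene come from 1 clone was not tested.

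The number of members called by class depends on the tool, on 2 libraries and on how barcodes were chosen. DESeq2 called 11 members higher in IgG than IgA and 9 higher than IgM. Over all genes and both directions, DESeq2 called 939 of 31890 for IgG versus IgA and 974 for IgM versus IgG. In the main fit edgeR called 939 and 1080 of 9366. For the other settings the share of all genes called is not given here, so their counts have no background beside them. Without female bone marrow 7 members were called higher in IgG than IgA and 15 higher than IgM, and without female spleen 5 and 12. With a leading light-chain share of at least 80%, 4 were called against IgA, and with every barcode reduced to 1000 UMIs, where 20 members were tested, 5. The median IgG minus IgA difference was 0.92 by DESeq2, 0.52 without female bone marrow, 1.03 without female spleen, 0.83 at the 80% share and 0.69 over the 20 members after the reduction. The calls of Birc5, Cdca3, Cdca8 and Tacc3 against IgA and of Cdca8, Mki67 and Rangap1 against IgM were lost under more alternatives than kept them. Fits of the named members under the alternatives kept the direction of each call in both comparisons.

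Other genes moved with class beside the members. Of 46 other mitosis genes tested, 15 were higher in IgG than IgM and none lower, with a median IgM minus IgG difference of -0.61. Against IgA, 4 were higher and 1 (Ncapg2, a condensin II subunit) lower in IgG, with a median of 0.63. Those counts lie beside 5.62% of all genes called higher and 4.41% lower, so the count against IgA is not far from the background. Plk1, the polo kinase of mitosis, had IgG minus IgA and IgM minus IgG differences of 1.76 (SE 0.46) and -1.19 (SE 0.25), and cyclin B1 (Ccnb1) 1.41 (SE 0.38) and -0.88 (SE 0.22). Of 37 S-phase genes tested, 2 were higher in IgG than IgA and 3 higher than IgM, with medians of 0.25 and -0.25. Over all genes 5.62% and 5.23% were called in those directions, so 2 or 3 of 37 is near the background. Of the cell cycle brakes only the antiproliferative gene Btg2 was called in these 2 comparisons, and it too was higher in IgG, by 0.41 (SE 0.11) over IgA and with an IgM minus IgG difference of -0.74 (SE 0.10). Of 6 B cell markers tested, 4 were higher in IgG than IgA, among them H2-Aa at 1.23 (SE 0.22). Against IgM, H2-Ab1 was higher in IgG and Bach2 lower, with a median IgM minus IgG difference of 0.01. Of 8 ASC markers, 1 (Mzb1, 0.80, SE 0.12) was higher in IgG than IgA and 3 lower, Tnfrsf17 at -2.52 (SE 0.18), Jchain at -1.11 (SE 0.16) and Irf4 at -0.54 (SE 0.11). Against IgM, Mzb1 and Xbp1 were higher in IgG, and Tnfrsf17 and Jchain lower. All 6 neutrophil markers tested were higher in IgM than in IgA and IgG and none was called between IgG and IgA. Of 2 macrophage markers tested, 1 was higher in IgM than IgA, 1 was higher in IgM than IgG, and none was called between IgG and IgA. Of 2 germinal centre B cell markers tested, 1 was higher in IgG than IgA and 1 was higher in IgG than IgM. The median leading light-chain share in the sums tested was 72.2 to 85.5% in IgG, 66.8 to 84.7% in IgA and 67.1 to 86.1% in IgM. The part of these in the member differences was not tested. Without barcodes of other lineages, 10 members were higher in IgG than IgA and 32 than IgM. The medians were then 0.81 for IgG minus IgA and -0.87 for IgM minus IgG. The share of all genes called in this setting is not given here.

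Whether the IgM minus IgA difference itself differed between spleen and bone marrow was tested with a class by tissue term, with 4 residual degrees of freedom. Of the 50 members 0 were called, which is near the background of 0.0961% of genes. Of the members, 1 had an unadjusted p under 0.05 (Hmmr, a hyaluronan receptor that binds the spindle). Among the 10 most abundant members the term ran from Mki67 at -0.59 (SE 0.32) to Smc4 at 0.08 (SE 0.27).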

How the data were processed

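Single-cell gene expression was measured in 6 libraries. The deposited matrices hold raw counts of UMIs per gene and barcode. The authors made the filtered ones with Cell Ranger 6.0.2 per the file headers and the submitters' processing notes, which also name the builds mm10 and GRCm38. The headers of the unfiltered matrices, used here for free RNA, name an earlier version of Cell Ranger. Groups follow the labels. The 6 B cell receptor libraries were not used here. The 52 members and all gene lists were chosen with earlier results of these data known.

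From the deposited counts, barcodes were kept with at least 1000 UMIs outside genes whose symbol starts Igh, Igk or Igl and a leading Igkv or Iglv share of at least 50%. Counts were summed per library, per library and class (at least 20 barcodes), or per library and range, and tested with edgeR 4.0.16 (quasi-likelihood, filterByExpr, TMM, R 4.3.3) with Benjamini-Hochberg adjustment over all genes tested at 0.05. DESeq2 1.42.0 was an alternative. Adjusted p-values in the text are edgeR's unless stated. The code was tested on simulated data. No doublet caller was run, and the light-chain rule still keeps barcodes with up to 50% of these UMIs from other V genes. For every barcode of the filtered lists the unfiltered matrix held the same total, so no free RNA had been removed between them. Named with values are, per comparison, the members past the threshold (at most 20 by size), the 10 with the highest mean, and at least 1 per role; where no member passed, these 10 are given by their range. Tests of the lists as sets were not made. The values of 1 B cell marker are not reported here.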

Additional observations from a re-analysis of the deposited data

How the results depend on the processing

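Alternatives were run for 8 counts of members called, 6 shares, 6 summed levels and 3 counts over other lists. Where libraries were left out one at a time, members called ranged from 0 to 2 for thymus versus bone marrow, 0 to 6 for thymus versus spleen, 0 to 3 for spleen versus bone marrow, 0 to 5 for male versus female, 5 to 21 for IgG versus IgA, 12 to 21 for IgM versus IgG and 0 to 3 for the class by tissue term, and the B cell markers called in the dividing range from 2 to 6. The libraries behind these are male thymus (2 lower against bone marrow, 3 lower against spleen), male spleen (6 lower in thymus, 3 higher in spleen than bone marrow), either thymus library (5 lower in male), male bone marrow (3, class by tissue term) and, for class, female bone marrow and female spleen. A lone library left in a tissue is assumed to vary like the others. With at least 10% ribosomal protein UMIs and under 10% mitochondrial UMIs, 3 members were higher in thymus than bone marrow, 4 than spleen, 15 lower in male, 1 higher in IgM than IgA, 11 in IgG than IgA, 14 in IgG than IgM, and 3 lower for the term. In that setting Ube2c turned to 0.87 (edgeR adjusted p = 0.0088) against bone marrow and 0.88 against spleen, and Top2a to 0.79 in thymus versus spleen and -0.44 in male versus female. For male versus female, 1 member was called with no filter on low counts, a minimum of 2000 UMIs, no other lineages, IgM only and thinning. For IgM versus IgA, 2 were called with no filter and 1 with thinning. For IgG versus IgA, 11 were called by DESeq2, 4 at a light-chain share of 80%, 10 without other lineages, 12 where the class gene held 80% of constant-gene UMIs and 5 with thinning, and for IgM versus IgG 9 by DESeq2, 11 at the 80% class share and 6 with thinning. The last class setting and the removal of other lineages and of the light-chain rule were added after the data were seen. The share of all genes called in each setting is not given beside these counts, and the cause was not tested for any of these.

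The dividing-range shares, for both libraries of bone marrow, then of spleen, then of thymus, were 13.97, 10.6, 17.7, 14.3, 20.6 and 13.5% with at least 3 member UMIs. With at least 10 they were 3.23, 2.703, 3.76, 3.03, 3.74 and 3.82%. In male bone marrow 3 UMIs of other mitosis genes gave 4.92%. A light-chain share of 80% gave 5.26% in female spleen, 3.34% in male spleen and 1.35% in female thymus, and no light-chain rule 9.43% in female spleen. At a light-chain share of 80% the summed members were 2098 and 1756 CPM in bone marrow, 1924 and 1653 in spleen and 1449 in female thymus. In the dividing range 3 B cell markers were called with thinning and with no other lineages, and 5 brakes with thinning. Scaling by library size alone moved the median of all genes to 0.20 for both thymus comparisons and 0.22 for male versus female, so values there are relative to it, and DESeq2 moved it to -0.21, -0.24 and -0.13 for IgM versus IgA, IgG versus IgA and IgM versus IgG. Of the values of named members under the alternatives, 1887 kept direction and side of the threshold, 204 lost the call, 42 gained it and 4 turned, as given. The labels give no replicate numbers to block on. Sex or library is already a term of each model, and without the other factor 0 members were called between tissues or sexes. Female thymus, with 107 barcodes, has the fewest.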

Other observations

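Barcodes that reached 1000 UMIs but failed the light-chain rule enter only the alternative without that rule. They held the dividing range at shares of 7.01, 4.52, 10.4, 5.98, 8.06 and 8.82% in the libraries of bone marrow, spleen and thymus, female first. Each share was above that of the barcodes used in the same library. Of the barcodes with at least 1000 UMIs, 25.9 to 58.7% passed the rule, so most were set aside in 4 of the 6 libraries.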
